A study of Mus musculus with 6 samples.

Results

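The expression of Prr5l and Sycp2 was described across clusters, cell type labels and the 2 marrow sites of a single-cell RNA sequencing study. These 2 genes, of 32285 genes in the count matrices, were taken by symbol. They were chosen by their levels in these same data, in which earlier results had shown less of both at the jaw. The difference between the sites is therefore given below as a description, with its error and with no test. CD11b+ cells, that is cells carrying the integrin of neutrophils, monocytes and macrophages, had been enriched from bone marrow with magnetic beads, and 10x Genomics 3′ libraries were made from 3 femur samples and 3 mandible samples. All mice were C57Bl/6 animals aged 2 months, and the labels name no further allele or treatment. By the labels, femur replicate 1 is female, and the other 2 femur samples and all 3 mandible samples are male. The labels name femurs and tibiae as the source of the femur marrow, whereas the study's methods name femurs. The mandibles had lost their molars by extraction, and the sockets were flushed as well. How many mice made up a sample is not stated, and p-values below measure only the spread between these samples.

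Prr5l, also called PROTOR-2, is a binding partner of Rictor in mTOR complex 2 (mTORC2), the kinase complex that phosphorylates Akt, Sgk and protein kinase C family members. It has also been described as a partner of tristetraprolin, the mRNA-destabilising protein encoded by Zfp36, and as a brake on the phosphorylation of protein kinase C delta by mTORC2 in migrating cells, where the ubiquitin ligase Rnf128 targets Prr5l for degradation. Sycp2 encodes a protein of the axial and lateral elements of the synaptonemal complex, the structure that holds homologous chromosomes together in meiosis, and it is known for its role in germ cells rather than in blood cells.

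Both genes lie on the minus strand of chromosome 2 of the mouse build mm10 (GENCODE vM21). Prr5l (ENSMUSG00000032841) spans chr2:101714285-101883027 and Sycp2 (ENSMUSG00000060445) spans chr2:178345293-178407685. RefSeq (GRCm38.p6) gave 3 start sites for Prr5l and 1 for Sycp2, each with a window of 250 bases before and 50 bases after the start. The outermost Prr5l window, chr2:101882978-101883277, and the Sycp2 window, chr2:178407609-178407908, both on the minus strand, are printed 5′ to 3′ so that the sequence at the start of each gene can be set beside its levels. Capitals mark the only motif match, a PU.1 box read on the opposite strand.
Prr5l: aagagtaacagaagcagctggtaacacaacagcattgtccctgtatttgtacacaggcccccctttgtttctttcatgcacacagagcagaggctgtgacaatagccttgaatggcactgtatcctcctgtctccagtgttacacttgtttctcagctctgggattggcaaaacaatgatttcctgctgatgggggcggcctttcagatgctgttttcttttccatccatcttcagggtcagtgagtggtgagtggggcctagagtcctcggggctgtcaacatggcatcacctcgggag
Sycp2: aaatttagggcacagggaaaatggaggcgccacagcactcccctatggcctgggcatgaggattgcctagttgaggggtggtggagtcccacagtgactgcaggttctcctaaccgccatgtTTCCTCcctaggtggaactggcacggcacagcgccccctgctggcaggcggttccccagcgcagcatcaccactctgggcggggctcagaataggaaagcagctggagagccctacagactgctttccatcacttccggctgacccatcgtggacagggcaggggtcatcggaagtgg
Windows were searched on both strands for GAGGAA (the core box of PU.1, a factor of all myeloid cells), TTGCNNAA (a C/EBP motif) and an interferon response element (GAAA, any 2 bases, GAAA, chosen after the likeness results below were seen). Among 32851 windows of 27025 genes, 28.3% held the first, 10.8% the second and 3.44% the third. In the Sycp2 window the PU.1 box began 128 bases before the start and reads TTCCTC on the printed strand. The other motifs had no match there, and none of the 3 motifs matched in any of the 3 Prr5l windows. The other 2 Prr5l windows, chr2:101838931-101839230 and chr2:101797658-101797957, had GC contents of 43.0% and 54.7%, against 50.3% in the printed one and 60.7% at Sycp2. Counts from the 3′ end of transcripts do not show which Prr5l start was in use.

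The files held 69776 kept cells of 74091 barcodes, with 7763 to 22797 cells and 82962160 to 244946998 UMIs per library. Levels below are given as CPM, the UMIs of a gene per 1000000 UMIs summed over the cells of a library and cluster. Pairs of libraries shared 15 to 70 cell barcodes, at most 0.65% of the smaller library. The authors' 9 clusters were used by number. More than 99% of the cells of clusters 0 to 3 carried the authors' neutrophil label, as did 95.2% in cluster 4, 96.0% in cluster 7 and 87.6% in cluster 8. Cluster 5 held 50.8% monocyte-labelled and 34.4% neutrophil-labelled cells, and cluster 6 held 85.0% B-cell-labelled cells. Median UMIs per cell were 11168 in cluster 0, 4591 in cluster 1, 5757 in cluster 2, 7000 in cluster 3, 21561 in cluster 4 and 10085 in cluster 5.

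Prr5l was highest in cluster 1, where it measured 202.9, 210.3 and 232.9 CPM in femur replicates 1 to 3 and 94.9, 107.3 and 90.0 CPM in mandible replicates 1 to 3. Every mandible library lay below every femur library, and the lowest femur value was far above the highest mandible value. The means were 215 ± 15.6 CPM in the femur against 97.4 ± 8.91 CPM in the mandible (SD, n = 3), a 2.21-fold lower level in the mandible and a log2 difference of -1.01 ± 0.15 (SE, edgeR fit over all genes). CPM are per total UMIs, whereas the fit scales libraries by TMM, so the CPM ratio and the fitted difference need not match. Over all genes of cluster 1 the median log2 ratio of the CPM means was -0.13 and the fitted median 0.00, and in cluster 7 they were -0.11 and -0.01. Of the 10687 genes tested in cluster 1, 16.9% had all 3 mandible libraries below all 3 femur libraries.

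In cluster 2, another neutrophil cluster with high levels, Prr5l measured 106.3, 102.2 and 110.6 CPM in the femur libraries and 37.0, 49.2 and 32.5 CPM in the mandible libraries. The sites did not overlap, and the femur libraries lay close together. The log2 difference was -1.38 ± 0.20, and 8.41% of 9618 genes were lower in the mandible without overlap in that cluster. Cluster 7, whose neutrophils had a median mitochondrial share of 6.78%, held 95.8, 154.1 and 109.5 CPM in the femur against 37.1, 61.3 and 31.8 CPM in the mandible, a log2 difference of -1.38 ± 0.29. All 3 mandible libraries were again below the lowest femur library, a pattern that 7.91% of 5939 genes had in cluster 7.

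The monocyte cluster 5 carried the next level of Prr5l, with 79.8, 70.0 and 58.3 CPM in the femur against 53.8, 29.8 and 37.7 CPM in the mandible. The sites did not overlap, but mandible replicate 1 came within a few CPM of femur replicate 3. The log2 difference was -0.81 ± 0.20, and it was -0.28 when the finer clusters within cluster 5 were weighted equally. In this cluster 4.29% of 13765 genes were lower without overlap. In the neutrophils of cluster 0 the levels were lower, at 9.93, 12.96 and 20.89 CPM in the femur against 5.80, 7.97 and 5.23 CPM in the mandible, with a log2 difference of -1.19 ± 0.34. Femur replicate 3 stood above the other libraries of cluster 0, the log2 difference was -0.71 without it and -1.74 with cells thinned to 1000 UMIs, and 8.63% of 12285 genes were lower without overlap there. The neutrophil precursor markers (5 of 5) of cluster 0 summed to 273 to 367 CPM in the femur libraries and 172 to 238 CPM in the mandible libraries. Higher in the mandible without overlap were the erythroid markers (3 of 4), at 16.3 to 23.5 and 45.8 to 191 CPM, the T and NK cell list (2 of 8), at 13.8 to 18.0 and 18.3 to 19.2 CPM, and the ameloblast list (2 of 4), at 0.011 to 0.035 and 12.6 to 26.5 CPM. The part of these lists in the difference was not tested.

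Prr5l was low elsewhere. Cluster 3 held 2.92, 9.63 and 7.30 CPM in the femur against 0.64, 0.55 and 1.34 CPM in the mandible, the latter from 6, 4 and 9 UMIs, and 3.87% of its genes were lower without overlap. In cluster 6, where B-cell-labelled cells prevailed, the femur libraries had 14.1, 15.0 and 11.3 CPM and the mandible libraries 6.3, 5.9 and 5.3 CPM, from 4 to 16 UMIs per library. All B-cell-labelled cells of the series held 4 femur and 1 mandible Prr5l UMIs, against 26 and 24 in cluster 6, so the cluster's UMIs came mostly from cells without that label. Of the genes past the filter on low counts, which Prr5l did not pass there, 3.01% were lower without overlap. The sites overlapped in cluster 4, with 2.82, 6.93 and 8.05 CPM in the femur against 2.40, 4.14 and 3.82 CPM in the mandible. They overlapped as well in cluster 8, of which femur replicate 1 supplied 160 of 274 cells, and where mandible replicates 1 and 3 and femur replicate 2 had no Prr5l UMI.

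Sycp2 was also highest in cluster 1, at 167.6, 125.9 and 130.0 CPM in the femur against 76.4, 77.4 and 89.7 CPM in the mandible. The sites did not overlap, and femur replicate 1, the female sample, was the highest. The means were 141 ± 23.0 and 81.2 ± 7.44 CPM (SD, n = 3), a 1.74-fold lower level in the mandible and a log2 difference of -0.67 ± 0.16. In cluster 2 the libraries held 114.7, 92.4 and 103.4 CPM in the femur against 51.9, 58.0 and 65.3 CPM in the mandible, again without overlap, with a log2 difference of -0.79 ± 0.16.

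Unlike Prr5l, Sycp2 had a fair level in cluster 3, with 43.6, 44.4 and 31.3 CPM in the femur against 22.1, 21.5 and 26.4 CPM in the mandible. The lowest femur library lay above the highest mandible library, and the log2 difference was -0.75 ± 0.14. Cluster 7 held 74.7, 65.0 and 75.4 CPM in the femur against 35.1, 34.4 and 56.6 CPM in the mandible, a log2 difference of -0.69 ± 0.25. Mandible replicate 3 was the library nearest to the femur values there.

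Sycp2 was low in the remaining clusters. Cluster 5 held 15.7, 12.4 and 16.7 CPM in the femur against 6.60, 7.95 and 9.87 CPM in the mandible (log2 difference -0.93 ± 0.22), and cluster 0 held 11.95, 13.41 and 16.79 CPM against 10.62, 10.68 and 8.96 CPM (log2 difference -0.45 ± 0.20). Without femur replicate 3, the log2 difference of Sycp2 in cluster 0 was -0.20, and with cells thinned to 1000 UMIs it was -1.32. In cluster 4 the values were 3.88, 4.83 and 6.83 CPM in the femur against 3.43, 3.47 and 3.78 CPM in the mandible, where 10.1% of 12265 genes were lower without overlap, and the log2 difference of -0.55 ± 0.25 was -0.22 without femur replicate 3 and -0.93 without the 5% of cells with most UMIs. The sites overlapped in cluster 6, with 3.53, 16.9 and 5.66 CPM against 7.90, 6.34 and 7.28 CPM, and they did not in cluster 8, at 33.7, 16.5 and 12.7 CPM against 0, 10.3 and 0 CPM, where 3.34% of 2543 genes were lower without overlap. Sycp2 did not pass the filter on low counts in cluster 8, so it is not among those 2543 genes. Its values there rest on 45 femur and 5 mandible UMIs.

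Over all cells of a library, Prr5l measured 47.6, 65.4 and 49.8 CPM in the femur against 26.0, 21.1 and 20.3 CPM in the mandible, and Sycp2 measured 42.1, 43.1 and 34.1 CPM against 23.4, 17.9 and 21.2 CPM. Neither gene's sites overlapped. The Prr5l means of 54.3 ± 9.69 and 22.5 ± 3.07 CPM differed 2.42-fold (log2 difference -1.30 ± 0.16), and the Sycp2 means of 39.8 ± 4.94 and 20.8 ± 2.79 CPM differed 1.91-fold (log2 difference -0.96 ± 0.13). In these sums, fewer cells of an expressing type and less RNA per cell cannot be told apart. Of 16381 genes, 5.69% were lower in the mandible without overlap over all cells. Counted over the 9 clusters, the mandible mean was the lower one in 9 of 9 clusters for each gene, and the sites did not overlap in 7 of 9 clusters for Prr5l and in 8 of 9 for Sycp2. Cluster 6 for Prr5l and cluster 8 for Sycp2 are among these, where the gene did not pass the filter on low counts. In single clusters, 3.01% (cluster 6) to 16.9% (cluster 1) of tested genes were lower without overlap. The share of genes lower without overlap in as many clusters was not counted. Fewer clusters stayed without overlap in the thinned shares given below.

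**Figure D1:**
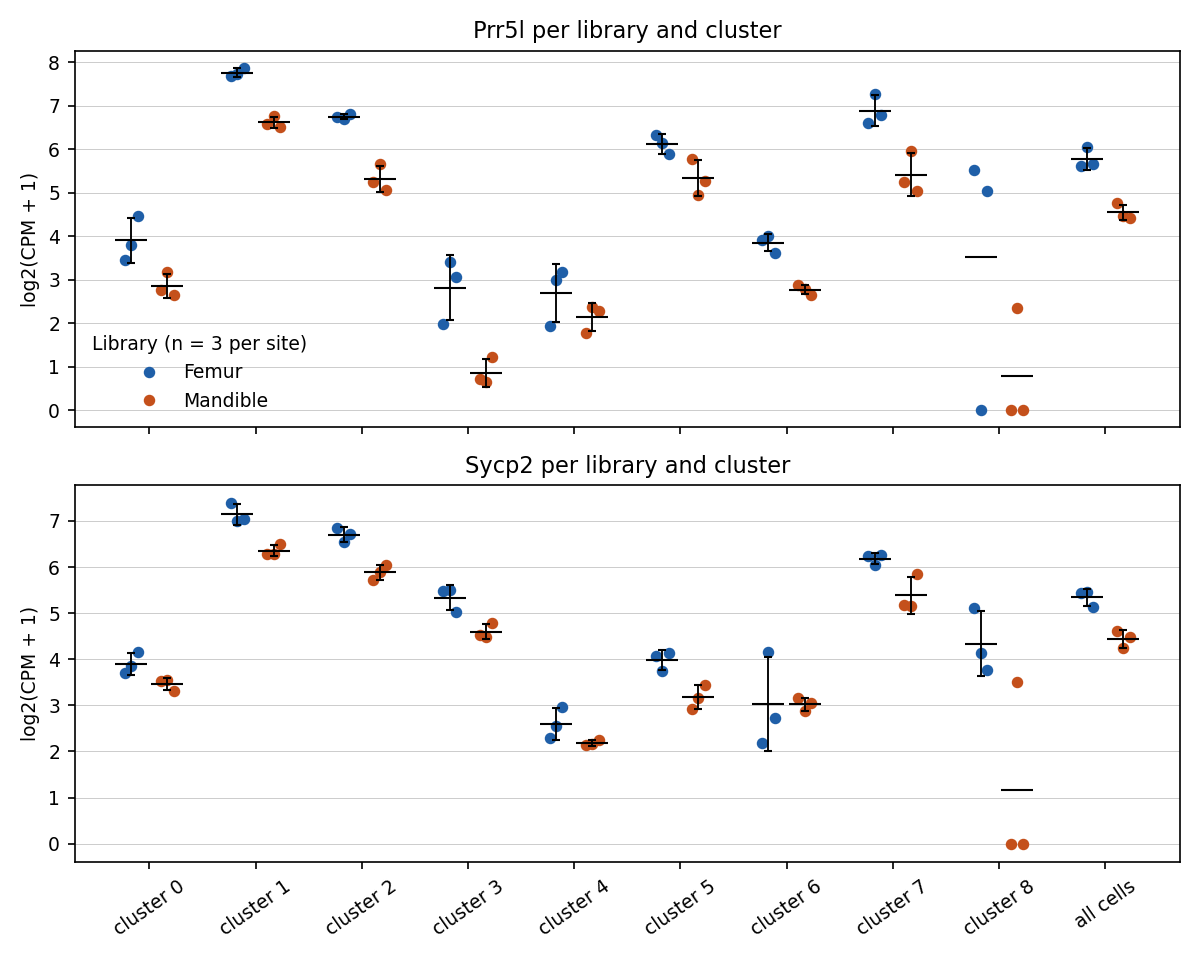
Level of Prr5l and of Sycp2 in each library, as log2(CPM + 1) on the vertical axis, for clusters 0 to 8 and for all cells on the horizontal axis. Each point is 1 library (blue femur, orange mandible), black lines are means over 3 libraries and bars are SD, left out where a library had no UMI. The mandible points lie below the femur points in clusters 1, 2 and 7 for both genes, and they overlap in clusters 4 and 8 for Prr5l and in cluster 6 for Sycp2.

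The order of the clusters differed between the genes. By the mean over 6 libraries, Prr5l ran from cluster 1 (156 CPM) through clusters 7 (81.6 CPM), 2 (73.0 CPM) and 5 (54.9 CPM) to a low group of clusters 8, 0, 6, 4 and 3 at 13.5 to 3.73 CPM. Cluster 1 was above cluster 7 within 6 of 6 libraries, but cluster 7 was above cluster 2 in 3 of 6 and cluster 2 above cluster 5 in 4 of 6. Those 4 libraries were the 3 femur libraries and 1 mandible library. Within the low group, clusters 8 and 0, and likewise clusters 0 and 6, kept their order in 2 of 6 libraries.

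Sycp2 ran from cluster 1 (111 CPM) through clusters 2 (81.0 CPM), 7 (56.9 CPM) and 3 (31.6 CPM) to clusters 8, 0, 5, 6 and 4 at 12.2 to 4.37 CPM. Each of the first 4 steps, from cluster 1 down to cluster 8, held within 6 of 6 libraries, and the steps below cluster 8 held in 2 to 4 of 6. Both genes were highest in cluster 1, and their orders parted at cluster 3, the lowest for Prr5l and the fourth for Sycp2, and at cluster 5, the fourth for Prr5l. Ranges over the 6 libraries overlapped between all neighbours in both orders.

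The share of cells with at least 1 Prr5l UMI in cluster 1 was 52.0 ± 1.67% at the femur against 30.0 ± 1.89% at the mandible (SD, n = 3), and cells with a UMI held 2.28 and 1.74 Prr5l UMIs on average. After every cell was thinned to 1000 UMIs, the shares were 18.7 ± 1.72% and 10.3 ± 1.10%. In cluster 2 they were 35.3 ± 2.40% and 16.5 ± 3.06% as counted and 10.8 ± 0.73% and 4.77 ± 1.23% thinned. For Sycp2 in cluster 1, 38.4 ± 6.46% of femur cells and 27.6 ± 1.07% of mandible cells had a UMI, or 11.6 ± 0.41% and 8.36 ± 0.65% after thinning. For Sycp2 in cluster 2 the shares were 36.5 ± 5.12% and 24.7 ± 1.27% as counted, without overlap, and 9.42 ± 1.27% and 6.27 ± 1.95% thinned, with overlapping libraries. The thinned shares also overlapped between the sites in clusters 5 and 7, where the CPM had not. So did the thinned shares of Prr5l in cluster 6 and of Sycp2 in cluster 8, from few UMIs. For Prr5l they were 5.71 ± 0.76% and 4.14 ± 1.99% in cluster 5 and 11.4 ± 5.05% and 5.02 ± 2.60% in cluster 7, and for Sycp2 they were 0.90 ± 0.55% and 0.61 ± 0.22% in cluster 5 and 7.29 ± 2.37% and 4.34 ± 2.47% in cluster 7. As a background, 1.44% of femur B-cell-labelled cells and 0.15% of those from the mandible had a Prr5l UMI as counted. After thinning, the share was 0% at both sites. Their median depths as counted were 4647.5 and 3510.5 UMIs, against 7929 and 7678 UMIs in neutrophil-labelled cells.

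The authors' finer clustering (resolution 0.5) divides clusters 1 and 2. Within cluster 1, finer cluster 0 had 301 ± 7.57 CPM of Prr5l in the femur against 164 ± 2.02 CPM in the mandible, finer cluster 1 had 142 ± 22.2 and 53.3 ± 10.8 CPM, and finer cluster 19 had 167 ± 11.3 and 39.4 ± 12.0 CPM. The sites did not overlap in any of the 3. Within cluster 2, finer cluster 5 held 92.2 CPM in the femur against 30.7 CPM in the mandible, and finer cluster 9 held 134 and 57.0 CPM. Most Prr5l UMIs of cluster 0 (2446 femur and 471 mandible UMIs) were in finer cluster 7, at 43.4 ± 3.62 and 17.6 ± 3.38 CPM, while finer clusters 3 and 4 held 2.06 and 1.60 CPM in the femur against 0.51 and 0.41 CPM in the mandible.

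Sycp2 differed little between the main divisions of cluster 1. Finer cluster 0 had 143 ± 25.4 CPM in the femur against 91.5 ± 14.1 CPM in the mandible, and finer cluster 1 had 141 and 73.7 CPM. In finer cluster 19, of 207 cells, the Sycp2 means of 196 and 157 CPM came with overlapping libraries. Within cluster 2 the means were 96.0 against 51.5 CPM in finer cluster 5 and 120.4 against 73.0 CPM in finer cluster 9. With finer cluster 11 split between clusters 0 and 4, 17 finer clusters gave 18 combinations of a cluster and a finer cluster with at least 20 cells in each library. The mandible mean was lower in 17 of 18 for Prr5l and in 18 of 18 for Sycp2, and every mandible library lay below every femur library in 11 and in 10 of them. Of all pairs of a tested gene and such a combination, 7.1% were lower in the mandible without overlap. The exception was finer cluster 15 of the monocyte cluster 5, where Prr5l measured 23.1 ± 2.99 CPM in the femur against 37.0 ± 8.80 CPM in the mandible. Every mandible library (26.8 to 42.2 CPM) lay above every femur library (19.8 to 25.7 CPM) there, from 76 femur and 70 mandible UMIs at a median depth of 2696.5 UMIs per cell. The share of all genes higher in the mandible without overlap there was not counted.

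**Figure D2:**
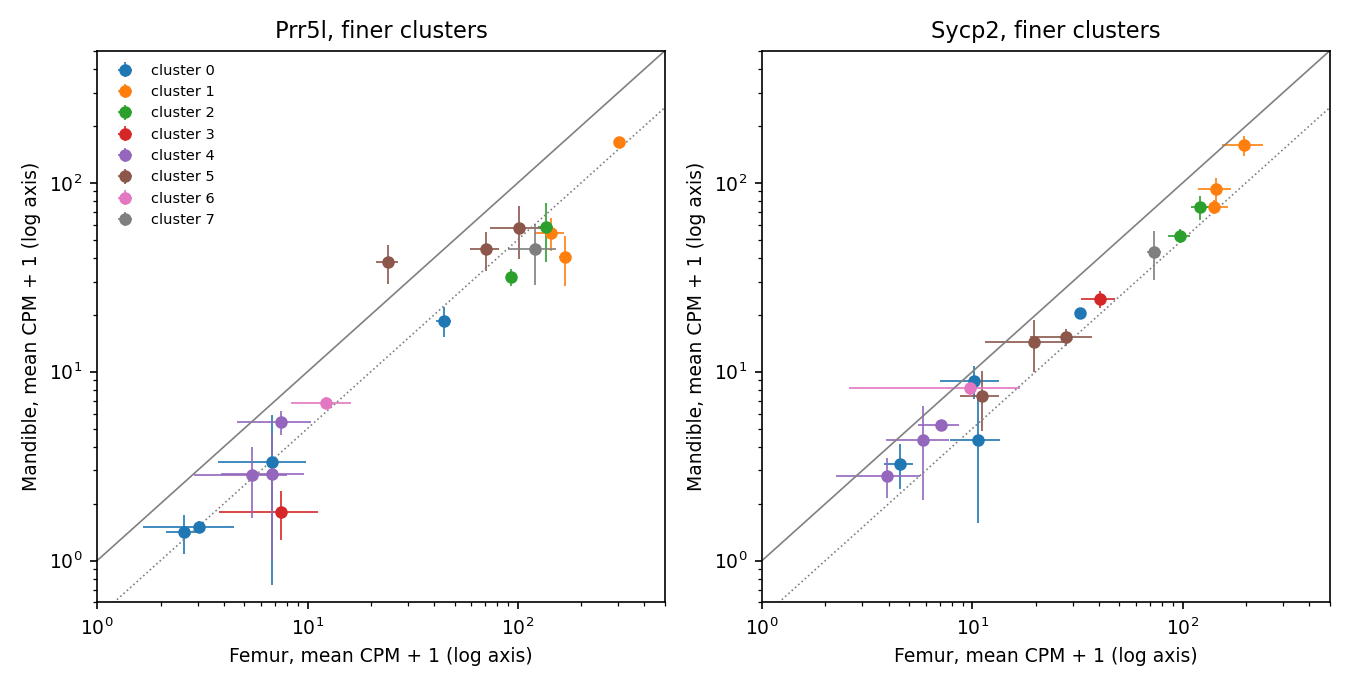
Mean level of Prr5l and of Sycp2 in the femur (horizontal, CPM + 1, log axis) against the mandible (vertical, CPM + 1, log axis) in 18 combinations of a cluster and a finer cluster. Each point is 1 combination coloured by its cluster, bars are SD over 3 libraries, the solid line marks equal levels and the dotted line a 2-fold lower mandible level. All points for Sycp2, and all but 1 for Prr5l, lie below the line of equal levels.

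By the authors' labels, both genes were seen in neutrophils. They parted in monocytes and dendritic cells, where Prr5l was seen and Sycp2 was scarce. Over all neutrophil-labelled cells (41805 from the femur and 21789 from the mandible), Prr5l measured 52.9 CPM in the femur against 21.6 CPM in the mandible, with libraries from 46.9 to 66.4 and from 19.0 to 24.0 CPM. In monocyte-labelled cells (1891 and 1886 cells) it measured 70.4 and 42.7 CPM, and here the library ranges of 55.1 to 83.5 and 27.0 to 56.3 CPM overlapped. In dendritic-cell-labelled cells, 80 and 97 in number, the pooled values were 64.1 and 28.5 CPM from 47 and 27 UMIs, and the library ranges of 27.9 to 92.6 and 22.6 to 48.5 CPM overlapped. Macrophage-labelled cells held 19.0 and 16.5 CPM from 45 and 18 UMIs, and B-cell-labelled cells 3.23 and 0.31 CPM from 4 UMIs and 1 UMI. Prr5l was thus seen in neutrophils, monocytes and dendritic cells, was lower in macrophages and was close to absent from B cells.

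Sycp2 was found mainly under the neutrophil label. It measured 40.4 CPM in the femur against 23.6 CPM in the mandible in neutrophil-labelled cells, with libraries from 35.2 to 47.8 and from 20.5 to 25.7 CPM. Monocyte-labelled cells held 1.97 and 0.58 CPM, from 37 and 11 UMIs. Dendritic-cell-labelled cells held 1 Sycp2 UMI in the femur and 0 in the mandible, and B-cell-labelled cells 3 and 2 UMIs. Macrophage-labelled cells held 11 and 4. The part of free RNA in these low counts was not tested.

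Cluster 5 mixes both labels, so the genes were followed in each. In its monocyte-labelled cells (1874 femur and 1860 mandible cells), Prr5l measured 83.7, 73.9 and 56.2 CPM in the femur against 57.2, 27.4 and 45.9 CPM in the mandible. Mandible replicate 1 exceeded femur replicate 3, so the sites overlapped, and the means were 71.3 ± 14.0 and 43.5 ± 15.0 CPM. In the neutrophil-labelled cells of the cluster (1506 and 1023 cells), Prr5l measured 103.4, 77.6 and 61.0 CPM against 54.9, 37.5 and 36.2 CPM, without overlap. The share of all genes lower without overlap in those cells was not counted.

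Sycp2 in the same cluster was found in the neutrophil-labelled cells, with 43.2, 27.4 and 23.2 CPM in the femur against 16.7, 16.9 and 19.0 CPM in the mandible (means 31.3 ± 10.5 and 17.5 ± 1.29 CPM). The monocyte-labelled cells held 0.61, 1.39 and 3.79 CPM against 0.49, 0.48 and 0.65 CPM. The Sycp2 level of cluster 5 therefore came mainly from cells with the neutrophil label, whereas Prr5l was at like levels under both labels.

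Whether the genes differ between cells that the authors' phase calls put in S or G2M and cells called G1 was tested within libraries, a comparison that the choice of the genes did not use. The calls were taken as deposited and were not checked against proliferation genes here. In cluster 5, Prr5l measured 19.8, 17.2 and 28.0 CPM in cells called S or G2M in femur replicates 1 to 3, and 6.05, 10.2 and 8.66 CPM in mandible replicates 1 to 3. In cells called G1 it measured 88.8, 79.2 and 68.4 CPM and 62.2, 45.4 and 50.4 CPM. The level was lower in cells called S or G2M in 6 of 6 libraries, by a mean log2 difference of -2.29 (SD 0.67, 2-sided exact permutation test of signs over 6 libraries p = 0.0312, the smallest this design can give, 0.0625 after Benjamini-Hochberg adjustment over 4 comparisons). Sycp2 gave a mean log2 difference of -1.60 (SD 0.62), lower in 6 of 6 libraries, with the same exact permutation p-values. After adjustment neither passed 0.05. The share of all genes lower in cells called S or G2M in 6 of 6 libraries was not counted. With cells thinned to 1000 UMIs, the share of cells with a Prr5l UMI was lower in cells called S or G2M in 6 of 6 libraries, by 4.33 percentage points on average (exact permutation p = 0.03125, adjusted 0.125). The thinned Sycp2 share differed by -0.48 percentage points (exact permutation p = 0.1875, adjusted 0.25), and it was higher in the cells called S or G2M of femur replicate 2.

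The cells of cluster 5 called S or G2M and those called G1 differed in depth and, in the femur libraries, in their monocyte share. In the femur libraries 21.8, 35.7 and 36.4% of the former carried the monocyte label, against 50.1, 56.1 and 43.7% of the latter. In the mandible libraries the shares were 67.0, 53.9 and 51.5% against 49.6 to 63.8%, slightly higher in the former within each library. Femur replicate 1 had a median of 2086.5 UMIs in cells called S or G2M against 9511 in cells called G1. In the other libraries the medians were 14502.5 to 21679 against 7804 to 10273. Without femur replicate 1 the mean log2 differences were -2.31 for Prr5l and -1.52 for Sycp2. Within the monocyte-labelled cells alone, a comparison chosen after the data were seen, Prr5l measured 3.88, 8.81 and 7.23 CPM in femur cells called S or G2M, and 2.62, 3.39 and 5.70 CPM in such mandible cells. In cells called G1 it measured 93.1, 81.2 and 69.56 CPM in the femur against 69.65, 49.1 and 66.6 CPM in the mandible. The S or G2M value was below the G1 value in 6 of 6 libraries, by a mean log2 difference of -3.86 (SD 0.66, 2-sided exact permutation p = 0.03125). Its adjusted exact permutation p of 0.0625 puts it in place of the planned Prr5l comparison among the 4, not beside it as a further one. The share of all genes lower in 6 of 6 libraries was not counted here either. Sycp2 did not show this pattern in the monocyte-labelled cells, with 3.20 CPM in S or G2M against 1.81 CPM in G1 femur cells (8 and 28 UMIs) and 0.61 against 0.60 CPM in those of the mandible (3 and 7 UMIs). The part of free RNA in the phase calls was not tested.

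Monocyte-labelled cells called G1 showed the sites at 81.3 ± 11.8 and 61.8 ± 11.1 CPM of Prr5l, with overlapping libraries, and those called S or G2M at 6.64 ± 2.52 and 3.91 ± 1.60 CPM. There were 168 S or G2M and 1706 G1 monocyte-labelled cells from the femur and 409 and 1451 from the mandible. In the neutrophils of cluster 0, cells called S or G2M and cells called G1 differed by a mean log2 of 0.67 for Prr5l (higher in 5 of 6 libraries, exact permutation p = 0.0938, adjusted 0.125) and of 0.22 for Sycp2 (higher in 4 of 6 libraries, exact permutation p = 0.4375). In cluster 4, where a library had 6 to 28 cells called G1, a ratio could be formed in 3 of 6 libraries for Prr5l, at log2 -1.62 to 0.56, and in 5 of 6 for Sycp2, at log2 -2.14 to -0.17, since the other libraries had no UMI of the gene in G1 cells. No test was made there.

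**Figure D3:**
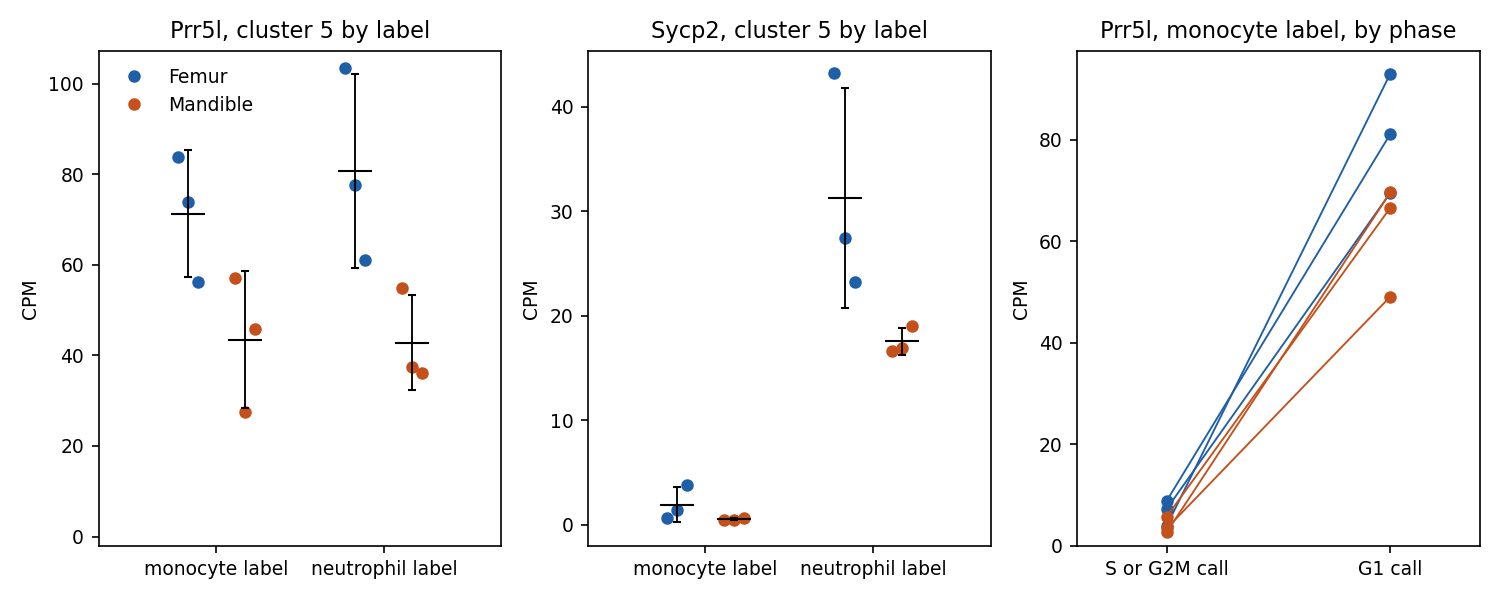
Prr5l and Sycp2 in cluster 5 as CPM by authors' label (monocyte, neutrophil) and site, each point 1 library with the mean and SD over 3 libraries, and, in the third panel, Prr5l as CPM in monocyte-labelled cells called S or G2M or called G1, with a line joining the values of a library. Sycp2 is near 0 under the monocyte label, and every line in the third panel rises from S or G2M to G1.

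Prr5l and Sycp2 were seen in the same cells somewhat more often than their separate shares would give. In cluster 1, 2841 cells held both, against 2551.9 from the product of the shares within each library, a ratio of 1.11 (1.07 to 1.26 over libraries). In cluster 2 the ratio was 1.29 (1209 cells against 937), and in cluster 5 it was 1.81 (349 against 193). With cells thinned to equal depth the ratios were 1.17 in cluster 1 and 1.66 in cluster 2, while in cluster 5 only 9 cells held both, against 2.71, too few for a ratio. Cells of 1 library share depth and state, and these are descriptions with no test.

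Genes with a like pattern were sought by Pearson correlation of log2(CPM + 1), given as a description. Across the 9 cluster means, the genes most like Prr5l were Ccl4 (r = 0.98) and Ccl3 (0.97), which encode inflammatory chemokines, followed by Wfdc17, Flcn and Cd244a (0.96 each). Sycp2 had an r of 0.74 with Prr5l and was in place 464 of 7178. The genes most like Sycp2 were Hcar2 (1.00), the receptor for hydroxybutyrate and niacin, Ptgs2os2, Sh2d3c, Nek6 and Csf3r, the receptor for G-CSF (0.99 each). In cluster 1, 7 of these 10 genes overlapped between the sites, among them Ccl3 at 144 ± 72.9 and 140 ± 80.3 CPM, Ccl4 at 137 and 87.7 CPM and Hcar2 at 185 ± 20.9 and 131 ± 51.1 CPM. The other 3 did not overlap and were lower in the mandible, namely Cd244a, an immune receptor, at 153 ± 88.1 and 49.2 ± 23.0 CPM, Csf3r at 3143 ± 351 and 2176 ± 338 CPM and Nek6 at 34.3 ± 3.39 and 26.8 ± 2.01 CPM. Of all genes tested in cluster 1, 16.9% were lower without overlap.

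Over 42 values of 6 libraries in clusters 0 to 5 and 7, with each cluster's mean removed, the nearest genes were different. For Prr5l they were Slfn5 (r = 0.88) and Oasl2 (0.88), both induced by interferon, then Sirpb1c (0.87), Pla2g7 (0.86) and Sirpb1a (0.85). For Sycp2 they were Klra17 (0.88), Il1b (0.86), Tbc1d14 (0.82), Upf2 (0.81) and Snap23 (0.80). The members' r with each other was 0.77, which placed Sycp2 at 28 of 6579 for Prr5l and Prr5l at 14 for Sycp2. The 42 points share libraries, and the difference between the sites by which the members were chosen is part of them.

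In cluster 1, Slfn5 measured 238 ± 58.7 CPM in the femur against 126 ± 18.1 CPM in the mandible, and Sirpb1c, a signal-regulatory protein, 148 ± 12.9 and 71.7 ± 11.4 CPM. Il1b, the cytokine interleukin-1 beta, measured 2504 ± 739 and 1301 ± 211 CPM. The sites did not overlap in cluster 1 for 10 of the 10 genes named from the 42 values, where 16.9% of all genes were lower without overlap. These genes were named for their likeness to members that were lower in the mandible, so their own direction is no separate result.

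Genes of the pathways around the members were tested between the sites with the edgeR quasi-likelihood test in each cluster, with p-values adjusted over all genes. None of 333 pairs of a pathway gene and a cluster (44 genes) passed a false discovery rate of 0.05. An unadjusted p below 0.05 was found in 29 pairs (8.71%), against 8.42% of all pairs of a gene and a cluster. Of these, 22 were lower in the mandible (6.61% of the pairs), against 4.56% of all pairs. The percentage of all genes that passed was 0.0163 in cluster 0, 0.0842 in cluster 1, 0.0416 in cluster 2, 0.0108 in cluster 3, 0.0245 in cluster 4 and 0.0842 in cluster 7, and 0 in clusters 5, 6 and 8. DESeq2, run without the filter on low counts, called 2 pairs, Prkch and Prkcq in cluster 1, both kinases of the protein kinase C family. It called 1.26% of the 21828 genes it fitted in that cluster, a wider set than the 10687 tested by edgeR. Prkch measured 42.5 ± 4.73 CPM in the femur against 23.5 ± 2.50 CPM in the mandible (log2 difference -0.71 ± 0.15, adjusted p = 0.109 by edgeR and 0.0147 by DESeq2), and Prkcq 14.0 and 5.50 CPM (-1.20 ± 0.32, adjusted p = 0.165 by edgeR and 0.0198 by DESeq2).

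Of the 6 further mTORC2 genes tested in cluster 1, 0 passed the edgeR threshold. An unadjusted edgeR p below 0.05 was found for 2, Deptor and Mlst8, against 13.6% of all genes of that cluster. Rictor, the scaffold that Prr5l binds, measured 85.5 ± 12.97 and 76.0 ± 1.85 CPM (log2 difference -0.03 ± 0.14), Mapkap1, which encodes the subunit SIN1, 80.6 and 73.6 CPM (0.01 ± 0.13, of opposite sign to the CPM ratio) and the kinase Mtor 18.9 and 15.7 CPM (-0.13 ± 0.16). Mlst8, a subunit of both mTOR complexes, measured 1.82 and 3.88 CPM (1.19 ± 0.41, edgeR adjusted p = 0.252), with every mandible library above the femur libraries. Deptor, an mTOR-binding inhibitor named after its values were seen, measured 1.77 ± 0.65 and 0.79 ± 0.17 CPM (-0.98 ± 0.39, edgeR adjusted p = 0.326), with every mandible library below the femur libraries. The median log2 difference of the mTORC2 list in cluster 1 was -0.01, against 0.00 over all genes. Prr5, the paralogue of Prr5l, was named after its values were seen. It measured 0.41 CPM in the femur against 1.20 CPM in the mandible over all cells (1.56 ± 0.53, edgeR adjusted p = 0.427), and 23.5 ± 8.94 and 27.0 ± 8.84 CPM in cluster 6, the B-cell-labelled cluster in which Prr5l was low.

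Of the kinases that mTORC2 phosphorylates, Prkcb at 1000.3 and 963 CPM was the most abundant in cluster 1, followed by Prkcd, which encodes protein kinase C delta, at 289 and 296 CPM (log2 difference 0.18 ± 0.19) and Sgk3 at 137 and 117 CPM. Among the reported partners, Zfp36 measured 1745 and 1691 CPM (0.10 ± 0.19, again of opposite sign to the CPM ratio), and its relative Zfp36l2 measured 525 ± 52.9 and 345 ± 45.2 CPM (-0.47 ± 0.16, edgeR adjusted p = 0.251). Rnf128 was scarce, at 4.03 and 2.73 CPM over all cells. List medians in cluster 1 were -0.03 for the kinase targets, -0.06 for the partners and 0.06 for the mTORC1 genes. Of the 11 kinase targets, 5 were lower in the mandible without overlap in cluster 1 (Sgk1, Sgk3, Prkce, Prkch and Prkcq, named after their values were seen), where 16.9% of all genes were. The last 3 had an unadjusted edgeR p below 0.05, as did 13.6% of all genes in cluster 1.

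Sycp2 was measured almost without its meiotic partners. None of the other 10 listed synaptonemal complex genes passed the filter on low counts in clusters 0, 1 or 2, and 4 did over all cells. The genes named next are not those 4 as a set. Syce2, a central element protein, measured 3.93 and 6.38 CPM over all cells (0.65 ± 0.35, edgeR adjusted p = 0.627), Hormad1 0.17 and 0.27 CPM, Sycp3, the usual partner of Sycp2 in the axial element, 0.13 and 0.15 CPM, and Sycp1 0.0089 and 0.0078 CPM. The germ cell markers Ddx4, Dazl, Dmc1 and Spo11 together measured 0.14 to 1.14 CPM per library in cluster 1, where Sycp2 had 76.4 CPM or more. Stag3, the meiotic cohesin subunit, measured 2.98 and 3.35 CPM over all cells.

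The mitotic cohesin genes were abundant. Over all cells Nipbl, the cohesin loader, measured 307 and 296 CPM, Stag2 219 and 192 CPM and Stag1 153 and 134 CPM. In cluster 1 the Stag1 means were 157 ± 1.80 and 107 ± 8.78 CPM (-0.41 ± 0.12, edgeR adjusted p = 0.204), and the median of the mitotic cohesin list was -0.06.

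Over all cells 0 of 48 pathway genes passed the edgeR threshold, as did 0% of all genes. An unadjusted p below 0.05 was found for 2 of the 48 (4.17%), against 9.37% of all genes. DESeq2 called 1 of the 48, against 1.16% of the 26364 genes it fitted without the filter on low counts. That gene was Prkca, at 3.24 and 9.96 CPM (log2 difference 1.62 ± 0.47, adjusted p = 0.396 by edgeR and 0.0153 by DESeq2).

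**Figure D4:**
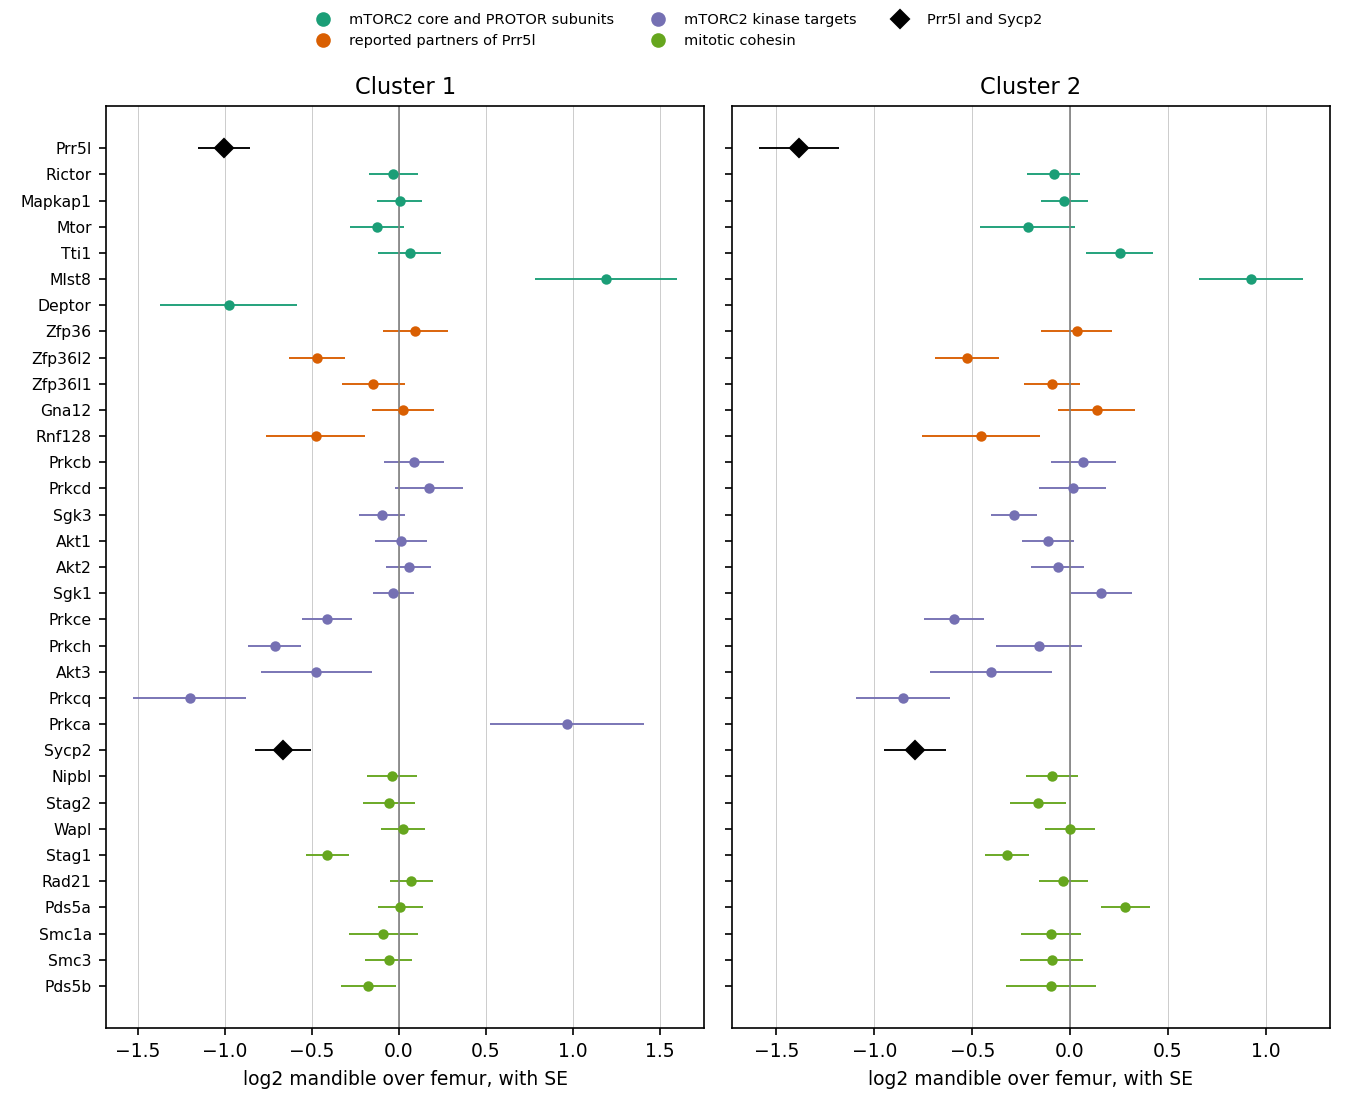
Log2 difference of mandible over femur (horizontal axis, with SE from the edgeR fit) in clusters 1 and 2 for the genes (vertical axis) of the mTORC2 core, reported partners, kinase targets and mitotic cohesin lists, with Prr5l and Sycp2 as black diamonds. Genes under the filter on low counts have no point. Rictor and Mapkap1 lie near 0 in cluster 1, Prr5l at -1.01 and Sycp2 at -0.67.

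The neighbours of both genes on chromosome 2 were followed as well. Of 18 genes within 500 kb, 14 could be tested over all cells, and 0 passed the edgeR threshold or were called by DESeq2, with 4 (28.6%) at an unadjusted p below 0.05, against 9.37% of all genes. By cluster, 0 of 56 pairs of a neighbour and a cluster passed in edgeR or DESeq2. An unadjusted edgeR p below 0.05 was found in 7 (12.5%), against 8.42% of all pairs of a gene and a cluster. Of the 7, 5 were lower in the mandible (8.93% of the 56), against 4.56% of all pairs. Those 5 were Zfp971, a zinc finger gene 311.3 kb from Sycp2, in clusters 0, 1 and 2, and Ppp1r3d in clusters 2 and 3. Zfp971, named after its values were seen, measured 11.1 ± 0.13 and 6.54 ± 0.68 CPM in cluster 2 (log2 difference -0.72 ± 0.18, edgeR adjusted p = 0.161). Next to Sycp2, Ppp1r3d (3.5 kb away) measured 29.7 ± 4.59 and 22.4 ± 2.10 CPM (log2 difference -0.43 ± 0.13, edgeR adjusted p = 0.396) and Fam217b (6.8 kb away) 26.4 and 26.3 CPM (-0.03 ± 0.13). Next to Prr5l, Traf6 (12.6 kb away), a signal adaptor of Toll-like and interleukin-1 receptors, measured 13.6 and 15.6 CPM (0.15 ± 0.13), and Ldlrad3 45.5 and 56.7 CPM (0.32 ± 0.34). The noncoding gene Gm13905 overlaps Prr5l on the opposite strand and measured 0.013 and 0.031 CPM. The sources do not state whether counting used the strand.

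Several other measures moved with the site, and their part in the difference was not tested. The marker lists whose sums did not overlap between the sites in clusters 1, 2, 3, 5 and 7 and over all cells are named, with the number of genes at a mean of 1 CPM or more. In cluster 1 the monocyte markers (6 of 6) summed to 328.6 to 427.0 CPM in the femur and 515.8 to 655.0 CPM in the mandible. The T and NK cell list rested on 1 of 8 genes, Cd3d, at 8.64 ± 1.79 and 13.6 ± 1.06 CPM, with Cd3e at 0, and the eosinophil list on 1 of 3, Siglecf, at 7.55 to 9.85 CPM in the femur libraries and 2.70 to 6.05 CPM in those of the mandible. The ameloblast list, of the enamel-forming cells, rested on 2 of 4, Amelx at 0 and 29.7 ± 17.6 CPM and Ambn at 0.019 and 2.70 CPM.

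In cluster 2 the monocyte markers (6 of 6) summed to 532.1 to 669.7 CPM in the femur and 754.8 to 857.2 CPM in the mandible. The platelet and megakaryocyte markers (3 of 3) had 1.23 to 2.58 and 5.77 to 14.0 CPM there, the T and NK cell list (1 of 8) 10.4 to 13.4 and 15.8 to 17.2 CPM, and the ameloblast list (2 of 4) 0 to 0.074 and 15.3 to 70.1 CPM. Cluster 5 differed in the erythroid markers (4 of 4), at 141 to 556 and 578 to 1286 CPM, the B cell markers (5 of 6), at 129.8 to 199 and 215 to 232 CPM, the platelet and megakaryocyte markers (3 of 3), at 10.6 to 33.3 and 35.5 to 58.3 CPM, and the ameloblast list (3 of 4), at 0.099 to 0.55 and 15.9 to 1317 CPM. All of these were higher in the mandible. In cluster 7 the ameloblast list (4 of 4) summed to 0 in the femur libraries and 193 to 549 CPM in the mandible libraries, the stromal and bone markers (4 of 4) to 9.34 to 70.7 and 203 to 699 CPM, the platelet and megakaryocyte markers (3 of 3) to 2.12 to 5.05 and 10.5 to 74.6 CPM, and the basophil and mast cell list (0 of 4) to 0 to 1.17 and 2.06 to 6.90 CPM. In cluster 3 the ameloblast list (2 of 4) had 0 to 0.097 and 12.8 to 28.0 CPM, the platelet and megakaryocyte markers (2 of 3) 1.27 to 3.00 and 3.53 to 8.76 CPM, and the germ cell list (0 of 4) 0.34 to 0.71 and 0 to 0.11 CPM. Over all cells the monocyte markers (6 of 6) had 987 to 1316 and 1431 to 1546 CPM. The erythroid (4 of 4), platelet and megakaryocyte (3 of 3) and ameloblast (3 of 4) lists were likewise higher in the mandible over all cells. The neutrophil markers (10 of 10) overlapped between the sites in cluster 1, at 163640 to 233309 CPM in the femur and 222126 to 283411 CPM in the mandible. The median mitochondrial share of cluster 1 cells was 0.22% in the femur against 0.33% in the mandible. Without femur replicate 1, which leaves male samples alone, the log2 difference of Prr5l was -1.05 in cluster 1 and -1.40 in cluster 2, and that of Sycp2 was -0.52 and -0.73.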

How the data were processed

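Raw counts (UMIs per gene and barcode) stand in the matrices that the authors deposited, made with Cell Ranger on mm10. The submitters' processing notes name version 7.0.1 and the matrix header 7.1.0, and use of the strand is not stated. A deposited table of cells adds the total UMI count and mitochondrial percent of each cell, with other values, namely clusters, phase calls and reference labels. The authors' filter was 600 to 6000 genes and at most 20% mitochondrial UMIs, after which they integrated and clustered them in Seurat with R 4.1.0. Integration decides which cells share a cluster and does not change the counts. The authors' marker table from a Wilcoxon test over cells was not used. How doublets were treated was not tested here.

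For each library and cluster, the UMIs of its share of the 69776 kept cells were added up, and the sums were compared with the edgeR 4.0.16 quasi-likelihood test (R 4.3.3, TMM, default filter on low counts, no covariate, false discovery rate 0.05). DESeq2 1.42.0, other filters and scalings, thinning to 1000 UMIs, G1 cells, finer clusters, replicate blocks and leaving out each library were the alternatives. Python 3.11.15 with pandas 2.3.3 and SciPy 1.17.1 gave levels, shares and exact tests. Of the cells, 88 had fewer than 1000 UMIs and were left out of thinned shares. Library totals of 82962160 to 244946998 UMIs set the precision, and values from few UMIs carry counting error beside the spread between libraries.

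The members and the gene lists were chosen with earlier results of these data known. Named were the members, listed genes past the threshold or else among the 3 most abundant of their list, the 5 genes most like each member by Pearson correlation (mean of at least 10 CPM, pseudocount 1, without Xist, Tsix and Y-linked genes), and neighbours with at least 10 CPM. Other list genes were named after their values were seen.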

Additional observations from a re-analysis of the deposited data

How the results depend on the processing

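The log2 differences between the sites of Prr5l and Sycp2, over all cells and in clusters 0 to 5 and 7, stayed below 0 in 263 of 263 alternatives. Of these, 246 moved by less than 1 SD between replicates and 17 by more. Clusters 6 and 8 were not among these alternatives. Both genes were chosen for this direction in the same counts, so the unchanged sign is no separate support. With cells thinned to 1000 UMIs, Prr5l gave -0.87 in cluster 1 and -1.16 in cluster 2, and Sycp2 -0.45 in cluster 1, -0.58 in cluster 2 and -1.05 in cluster 3. Weighting finer clusters equally took the plain mean of their log2 differences. It gave -1.46 for Prr5l in cluster 1, where finer cluster 19, of 207 cells, had -2.09. It gave -0.28 for Prr5l in cluster 5, where finer cluster 15, of 824 cells, had 0.68. For Sycp2 over all cells it gave -0.68, where the cause was not tested. Leaving out each library gave -1.12 to -0.93 for Prr5l in cluster 1, -1.63 (without mandible replicate 2) to -1.23 in cluster 2 and -1.44 to -1.21 over all cells, and -0.79 to -0.52 for Sycp2 in cluster 1. The thinned shares of cells differed by -8.44 percentage points for Prr5l in cluster 1 and -6.01 in cluster 2, against -22.0 and -18.8 as counted, and by -3.23 and -3.15 for Sycp2, against -10.7 and -11.8. The listed genes and chromosomal neighbours had 5 called pairs of gene and cluster without the filter on low counts, 2 with DESeq2 and 12 with a block on the library number, which only 4 libraries share in 2 pairs, and 0 in the other alternatives. Of the pairs of gene and cluster that each setting fitted, these settings called 1.06%, 0.464% and 5.25%. The library number and the replicate number in the titles are not stated to mark shared animals, and with the library number as a replicate block Prr5l gave -0.96 and Sycp2 -0.56 in cluster 1, while the block on title numbers called 0 pairs. With 1 library left out, the cluster 5 phase test has 5 libraries and cannot go below p = 0.0625 in the exact permutation test. Few UMIs stand behind Prr5l in the mandible cells of cluster 3 (19 UMIs) and behind both genes in clusters 6 and 8. DESeq2 was not run in cluster 8.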
